A study of Mus musculus with 12 samples.

Results

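The genes described here are 36 genes of the extraembryonic endoderm: regulators, matrix proteins, receptors, serum proteins and keratins of the primitive, parietal and visceral endoderm. They were taken as a list of symbols and matched to the annotation of a mouse expression array. All 36 had a probe set, 70 probe sets in all of the 37600 tested, and 21 of the genes were read by more than 1. The study used F9 cells, which come from a mouse teratocarcinoma, with 12 Affymetrix arrays in 4 groups of 3. The groups were wild-type (WT) cells in vehicle, WT cells in all-trans retinoic acid (atRA), and F9 cells labelled RARaKO, for knockout of Rara (retinoic acid receptor alpha), in vehicle and in atRA. Every group, the vehicle groups included, was in 1 µg/ml cycloheximide, which stops protein synthesis, for 30 min alone and then for 7.5 h with atRA at 1 µM or with ethanol at 0.1%. The samples therefore show 8 h in a translation block, not finished differentiation. How Rara was disrupted, and whether the knockout cells are 1 clone, is not given in the labels.

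Extraembryonic endoderm is the first endoderm of the mouse embryo. Primitive endoderm, set apart by regulators such as Gata6, Gata4 and Sox17, gives rise to parietal endoderm, which lays down a thick basement membrane, and to visceral endoderm, which takes up and secretes proteins for the embryo. F9 cells are used as a model of this step because retinoic acid drives them to primitive and then parietal or visceral endoderm over days. Retinoic acid binds the receptors encoded by Rara, Rarb and Rarg, which sit on DNA as pairs with retinoid X receptors and act on a set of direct target genes. In cycloheximide, steps that need a newly made protein are blocked.

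Expression values are treated as log2 and stand relative to the median of that probe set over the 12 arrays, so a value near 0 is a middle value and not a low level. Differences were tested with limma in a single fit of the 12 arrays. A probe set was called at a Benjamini-Hochberg adjusted p under 0.05, with the adjustment made across all 37600. Errors of differences are standard errors of that fit, and errors of group means are SDs of 3 arrays. Replicates are labelled as sets 2, 3 and 4 and nothing more, so the spread behind each p-value may be technical.

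Known targets of retinoic acid rose in both kinds of cell. Rarb, a direct target of the receptors, rose by 1.35 ± 0.09 in WT cells and 0.95 ± 0.09 in RARaKO cells. Cyp26a1, which breaks down retinoic acid, rose by 1.35 ± 0.08 and 1.38 ± 0.08 (limma, all adjusted p at most 4.05e-04). Rarb already lay 0.54 ± 0.09 higher in RARaKO than in WT vehicle, and 0.14 ± 0.09 higher in atRA (limma, adjusted p = 0.00394 and 0.424). The single probe set of Rara lay higher in the arrays labelled RARaKO, by 0.90 ± 0.09 in vehicle and 0.36 ± 0.09 in atRA (limma, adjusted p = 1.50e-04 and 0.0488). That probe set rose in atRA by 0.45 ± 0.09 in WT cells and differed by -0.10 ± 0.09 in RARaKO cells (limma, adjusted p = 0.0460 and 0.839). It does not settle the label, and every genotype difference below has its direction from that label. A coarse signal class, recovered from the rounding of the values, put 17 of 22 probe sets of 12 pluripotency genes in the class of median 8 or above, with at least 1 for each gene. It put 0 of 15 trophoblast and 0 of 11 mesoderm and fibroblast probe sets there, and 37 of the 70 endoderm probe sets (52.9%, beside 39.6% of all). Brightness also depends on the probes, so the class ranks no gene against another.

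The WT arrays of set 3 stood apart for these genes. In 39 of the 70 probe sets (55.7%) set 3 had the lowest value of the 3 sets in both WT vehicle and WT atRA, against 15.1% of all probe sets. Some results that rest on the WT arrays are therefore also given without these 2 arrays. The 2 arrays were picked by the values of these same genes, so a call gained without them is not independent support. Apoe, Dag1, Tfap2a and Pdgfrb, and the genotype differences of Foxa1, Amn and Fst in atRA, are among those given only with them.

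Promoter sequences are shown for the 3 genes below whose expression differed between groups and which have a promoter in the RefSeq table used (GRCm38.p6). Retinoic acid receptors bind pairs of a short core motif. Windows of 300 bases around the start of the transcript were searched on both strands for 4 of its spellings. The consensus spelling was AGGTCA. The variants were spelled AGTTCA in one case, GGGTCA in another and GGTTCA in the last. Foxa1 is on chr12:57546062-57546361 (minus strand), Amn on chr12:111270846-111271145 (plus strand) and Hhex on chr19:37434591-37434890 (plus strand). Capitals mark a core motif, and all are written 5′ to 3′ on the gene's strand.
Foxa1: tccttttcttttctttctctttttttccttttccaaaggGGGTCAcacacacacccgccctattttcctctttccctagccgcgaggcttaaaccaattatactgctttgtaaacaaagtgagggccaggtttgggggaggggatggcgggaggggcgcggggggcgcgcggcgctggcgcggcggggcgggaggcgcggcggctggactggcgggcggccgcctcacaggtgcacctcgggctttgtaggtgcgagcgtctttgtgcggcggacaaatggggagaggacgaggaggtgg
Amn: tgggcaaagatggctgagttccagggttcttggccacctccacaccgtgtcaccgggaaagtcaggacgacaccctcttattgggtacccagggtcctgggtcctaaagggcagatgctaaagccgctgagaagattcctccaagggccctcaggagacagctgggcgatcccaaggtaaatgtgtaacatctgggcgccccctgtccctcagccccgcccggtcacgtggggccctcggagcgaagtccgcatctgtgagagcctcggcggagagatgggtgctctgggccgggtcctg
Hhex: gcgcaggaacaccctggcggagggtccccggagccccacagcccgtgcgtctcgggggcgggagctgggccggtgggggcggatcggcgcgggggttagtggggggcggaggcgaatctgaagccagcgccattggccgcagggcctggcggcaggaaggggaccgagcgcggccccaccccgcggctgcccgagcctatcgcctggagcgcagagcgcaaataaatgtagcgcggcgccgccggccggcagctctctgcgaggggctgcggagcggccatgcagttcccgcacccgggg

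The Foxa1 window held 1 core motif, GGGTCA, at bases -211 to -206 from the start of the transcript. The Amn and Hhex windows held 0. A single core motif is common: 43.7% of the 32851 promoter windows in the table held at least 1 of the 4 spellings, and 13 of the 33 windows of 23 endoderm genes did (39.4%). Core motifs repeated in the same direction with 1, 2 or 5 bases between them were in 0 of the 33 windows, and in 0.222%, 0.268% and 0.0974% of all windows. These are matches of letters in a short window, and no binding was measured.

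The first question was which endoderm genes answered atRA within 8 h when new protein could not be made. In WT cells 2 of the 70 probe sets were called (2.86%), beside 0.569% of all probe sets: Foxa1 rose (0.484% of all probe sets were higher) and Fst fell (0.0851% were lower). In RARaKO cells 1 was called (1.43%), beside 0.263% of all: Fst fell (0.0479% of all were lower, 0.215% higher). The other genes of the list, the founding regulators Gata6, Gata4 and Sox17 and the laminin and collagen IV chains among them, had no call. At an unadjusted p under 0.05 (limma) there were 3 of the 70 in WT cells (4.29%), beside 7.27% of all. In RARaKO cells there were 5 (7.14%), beside 8.2% of all. The median difference over the 70 probe sets was -0.02 in each kind of cell, beside -0.01 (WT) and 0.00 (RARaKO) over all probe sets.

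Foxa1 (probe set 1418496_at) encodes a forkhead transcription factor of endoderm that opens chromatin. In WT vehicle its values in sets 2, 3 and 4 were -0.62, -0.52 and -0.54, and in WT atRA 0.22, -0.06 and 0.15. In RARaKO vehicle they were 0.06, -0.14 and -0.14, and in RARaKO atRA 0.52, 0.45 and 0.25. The 3 WT vehicle arrays were the lowest of the 12, the 3 RARaKO atRA arrays the highest, and WT atRA overlapped RARaKO vehicle. The WT response was 0.66 ± 0.09 (1.58-fold, adjusted p = 0.00487 by limma), with differences of 0.84, 0.46 and 0.69 within sets 2, 3 and 4. It was 0.76 without the 2 WT arrays of set 3 (adjusted p = 0.0243).

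In RARaKO cells Foxa1 was 0.48 ± 0.09 higher in atRA (1.39-fold, limma adjusted p = 0.0676), not called, with differences of 0.45, 0.59 and 0.39 within the sets. With the set number as a block it was called (adjusted p = 0.0429). The response difference, RARaKO minus WT, was -0.18, with a 95% interval from -0.47 to 0.10 and an adjusted p of 1.00 by limma. A call in WT cells alone does not show that the cells differ. Foxa2, its close relative, was read by a probe set that differed by -0.15 ± 0.11 in WT cells and -0.05 ± 0.11 in RARaKO cells, neither called.

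Fst encodes follistatin, a secreted inhibitor that binds activins and also some BMPs. Its probe set 1434458_at read 0.70, 0.57 and 0.54 in WT vehicle and -0.01, -0.24 and -0.01 in WT atRA. In RARaKO vehicle it read 0.05, 0.30 and 0.01, and in RARaKO atRA -0.63, -0.46 and -0.92. Within each genotype the atRA arrays all lay below the vehicle arrays. The fall was -0.69 ± 0.12 in WT cells (1.62-fold, adjusted p = 0.0167 by limma) and -0.79 ± 0.12 in RARaKO cells (1.72-fold, adjusted p = 0.0139).

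The Fst responses differed by -0.09, with a 95% interval from -0.45 to 0.27 and an adjusted p of 1.00 (limma). The WT call was lost without the 2 WT arrays of set 3, at -0.63 (adjusted p = 0.235), and each time any 1 of the 6 WT arrays was left out. The RARaKO call was lost without the RARaKO vehicle array of set 3. A second probe set of Fst, 1421365_at, gave smaller differences of the same sign, -0.32 ± 0.10 in WT cells and -0.40 ± 0.10 in RARaKO cells, not called (limma, adjusted p = 0.313 and 0.196). The 2 ligands on the list, Bmp2 and Ihh, had no call.

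**Figure D1:**
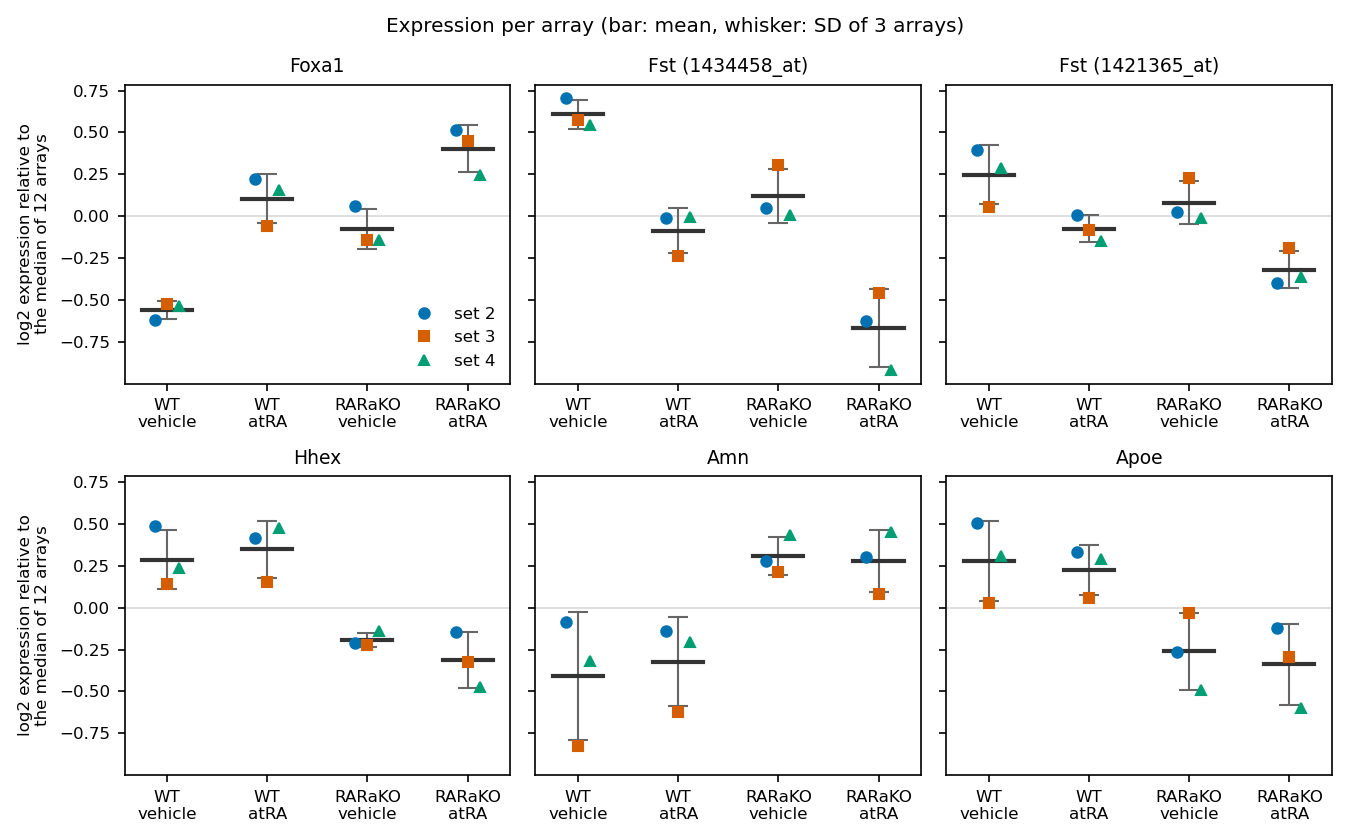
Expression on each array of the 4 called genes and Apoe, on a log2 scale relative to the median of 12 arrays (y axis), by group (x axis). Symbols mark the set, bars the mean and whiskers the SD of 3 arrays. Foxa1 was higher and Fst 1434458_at lower in atRA than in vehicle within both genotypes, while Hhex, Amn and Apoe separated by genotype and not by atRA.

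Among the other regulators the responses were small. Gata6, Gata4, Sox17, Sox7, Hnf4a, Hhex and Cited1 are transcription regulators of primitive or visceral endoderm, and none of their probe sets was called or had an unadjusted p under 0.05 (limma). Gata6, which with Sox17 sets the endoderm fate, differed in WT cells by 0.14 ± 0.16, 0.09 ± 0.17 and 0.07 ± 0.09 over its 3 probe sets. In RARaKO cells the same probe sets differed by 0.16 ± 0.16, 0.16 ± 0.17 and 0.07 ± 0.09. Gata4 differed by 0.00 ± 0.10 and -0.01 ± 0.08 in WT cells. Without Foxa1, the regulators lay between -0.17 (Sox17) and 0.19 (Sox7) in WT cells.

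The basement membrane and matrix group holds the laminin chains Lama1, Lamb1 and Lamc1, the collagen IV chains Col4a1 and Col4a2, the linker Nid1, the matrix proteins Sparc and Fn1, and the collagen chaperone Serpinh1, the products for which parietal endoderm is known. Of its 19 probe sets 0 were called in either response (limma), and 0 had an unadjusted p under 0.05 in either. The WT differences ran from -0.22 (Lamb1) to 0.20 (Fn1). Col4a1 1452035_at, which had the smallest range of the list over the 12 arrays (0.187), differed by -0.02 ± 0.06 in WT cells and -0.01 ± 0.06 in RARaKO cells. The RARaKO differences ran from -0.15 (Lamb1) to 0.29 (Lamc1). That Lamc1 value, from 1423886_at, rests on a set 2 array at 1.44 beside -0.30 and 0.22 in sets 3 and 4. Its differences within sets 2, 3 and 4 were 1.29, -0.44 and 0.01, so the mean of sets 3 and 4 lay below 0, and the other probe set of Lamc1 differed by -0.03 ± 0.08.

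The receptors and uptake proteins of the list are Dab2, an endocytic adaptor, Amn and Cubn, the subunits of a receptor for vitamin B12 and other cargo, Pdgfra, and the parathyroid hormone receptor Pth1r. Their 11 probe sets lay between -0.19 and 0.19 in WT cells and between -0.11 and 0.05 in RARaKO cells, with 0 called and 0 at an unadjusted p under 0.05 in either (limma). The plasminogen activator Plat and the anticoagulant Thbd, a marker of parietal endoderm, had no call either. Thbd differed by -0.32 ± 0.09 in RARaKO cells (adjusted p = 0.265, limma). Its vehicle values there were 0.22, 0.46 and 0.14 and its atRA values -0.01, -0.03 and -0.11.

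The serum proteins of visceral endoderm on the list are alpha-fetoprotein (Afp), transthyretin (Ttr) and the apolipoproteins Apoa1, Apob and Apoe. Their 12 probe sets lay between -0.14 and 0.10 in WT cells and between -0.15 and 0.24 in RARaKO cells, with 0 called (limma). At an unadjusted p under 0.05 there were 0 in WT cells and 1 in RARaKO cells. The keratins Krt8, Krt18 and Krt19, which form filaments in endoderm and other epithelia, lay between -0.17 and 0.09 and between -0.23 and -0.01 over 5 probe sets. They had 0 calls and 0 at an unadjusted p under 0.05 in either response (limma).

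**Figure D2:**
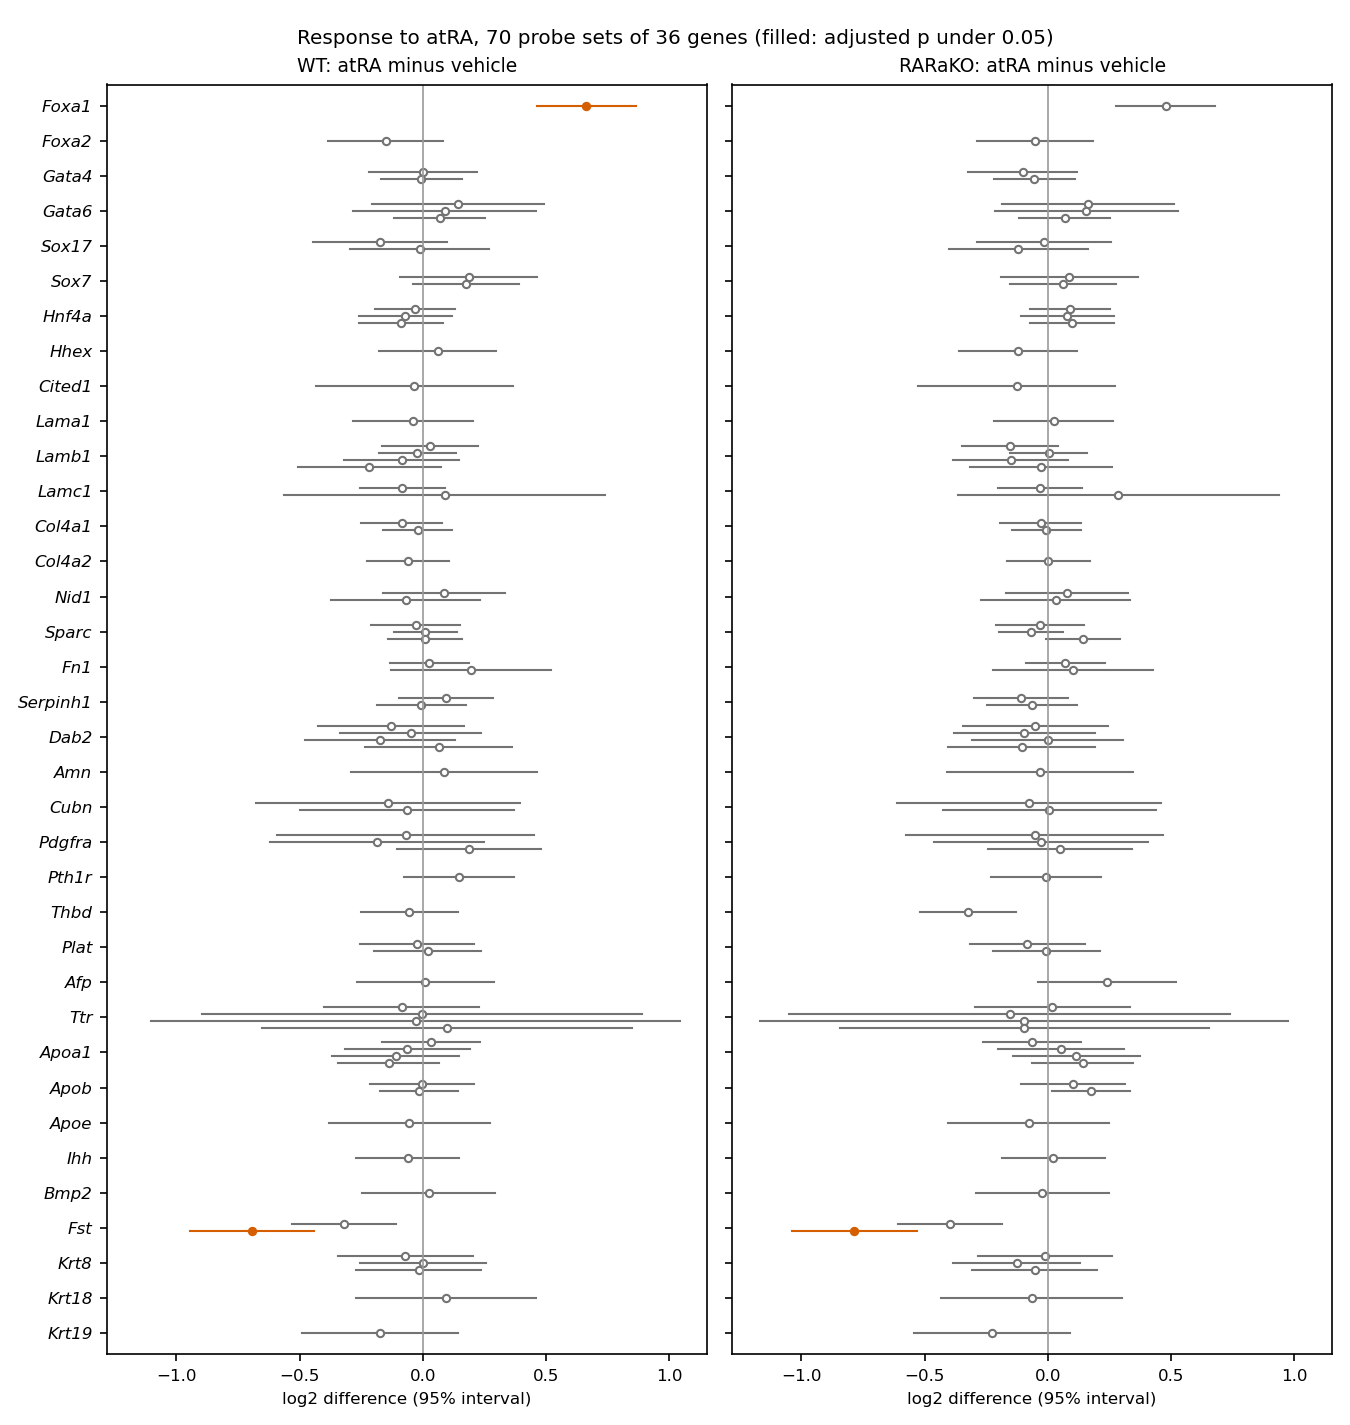
Response to atRA (atRA minus vehicle, log2, x axis) of the 70 probe sets of 36 genes (y axis) in WT and RARaKO cells, with 95% intervals of the limma fit. Filled symbols are probe sets called at an adjusted p under 0.05: Foxa1 and Fst in WT cells, Fst in RARaKO cells.

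How large a response of the probe set signal could have been missed is given by the intervals. Genes near background cannot be told from the centred values, and for those an interval does not bound the change of the RNA. In WT cells 58 of the 70 probe sets had a 95% interval within 0.5 of zero, a 1.41-fold change, and in RARaKO cells 55 did. The wide intervals belonged to genes that varied within groups, such as Ttr 1455913_x_at, from -1.10 to 1.04 in WT cells. The median standard error was 0.115 over the 70 probe sets, beside 0.0879 over all probe sets. No probe set of the list, and none of the 37600, was called for the difference between the RARaKO and WT responses (limma). At an unadjusted p under 0.05 there were 0 of 70, beside 1168 of 37600 (3.11%).

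A further 31 endoderm genes were listed beside the 36, and 27 of them were measured, by 48 probe sets: other regulators and signals, uptake and serum proteins, and matrix and collagen-processing proteins. In both responses 0 of the 48 were called (limma), with 6 at an unadjusted p under 0.05 in each. Of 22 pluripotency probe sets 0 were called in either response (limma), with 4 in WT cells and 1 in RARaKO cells at an unadjusted p under 0.05. Of 15 trophoblast probe sets 0 were called, with 5 and 6 at an unadjusted p under 0.05. Over all probe sets 7.27% in WT cells and 8.2% in RARaKO cells had an unadjusted p under 0.05 (limma). Among mesoderm and fibroblast markers both probe sets of Pdgfrb, a growth factor receptor, rose: 1436970_a_at by 1.46 ± 0.17 in WT cells and 1.13 ± 0.17 in RARaKO cells (limma, adjusted p = 9.41e-04 and 0.0133). The other probe set, 1417148_at, rose by 0.50 ± 0.08 and 0.52 ± 0.08 (adjusted p = 0.0175 and 0.0226, limma). Pdgfrb thus gave 2 of 11 probe sets in each response, beside 0.484% (WT) and 0.215% (RARaKO) of all called higher. Pdgfra, the family member on the endoderm list, differed by 0.19 at most in WT cells.

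The mean difference between 5′ and 3′ probe sets of the control transcripts Actb, Gapdh, Tfrc and Pcx relates to RNA and cRNA quality. Its WT vehicle and WT atRA ranges did not overlap. It was -0.123 to -0.0844 in WT vehicle and -0.0248 to 0.0178 in WT atRA. In RARaKO cells the ranges overlapped, from -0.0227 to 0.132 in vehicle and from 0.00122 to 0.0897 in atRA. By transcript, the WT ranges were apart only for Tfrc, from -0.479 to -0.114 in vehicle and from -0.112 to 0.162 in atRA. Those of Actb, Gapdh and Pcx overlapped. The values are centred per probe set, so they compare arrays and are not 5′ to 3′ ratios. The part of this mean difference in the results, the comparisons of RARaKO with WT vehicle arrays included, was not tested.

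The second question was whether these genes differed between RARaKO and WT cells. In vehicle 4 of the 70 probe sets were called (5.71%), beside 3.01% of all: Foxa1 and Amn were higher (1.84% of all) and Hhex and Fst lower (1.16% of all) in RARaKO. In atRA 2 were called (2.86%), beside 3.12% of all: Hhex and Fst were lower (1.51% of all) and 0 were higher (1.61% of all). The atRA share is near that of all probe sets and the vehicle share rests on 4 probe sets, so neither is a result about the list as a whole. At an unadjusted p under 0.05 (limma) there were 11 of the 70 in vehicle (15.7%), beside 15.3% of all. In atRA there were 8 (11.4%), beside 17.9% of all. The vehicle comparison shares its arrays with the 2 responses, so a gene whose WT vehicle value was extreme could be called in both. With the set number as a block 7 probe sets were called in vehicle, beside 5.24% of all probe sets. The added genes were Afp, Apoa1 and Apoe. A block takes out only a shift that both genotypes share. Set 3 was lowest in both conditions for 55.7% of the 70 in WT cells and for 12.9% in RARaKO cells.

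Hhex (1423319_at), a homeobox regulator of visceral and definitive endoderm, was lower in RARaKO cells in both conditions. It read 0.48, 0.14 and 0.23 in WT vehicle and 0.41, 0.15 and 0.48 in WT atRA. In RARaKO vehicle it read -0.21, -0.22 and -0.14, and in RARaKO atRA -0.14, -0.32 and -0.48. All 6 WT arrays lay above all 6 RARaKO arrays. The difference was -0.48 ± 0.11 in vehicle (1.39-fold lower, adjusted p = 0.0345 by limma) and -0.66 ± 0.11 in atRA (1.58-fold lower, adjusted p = 0.00579).

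Within sets 2, 3 and 4 Hhex differed by -0.70, -0.36 and -0.38 without atRA, and by -0.56, -0.48 and -0.95 with it. The atRA call held when any 1 array was left out. The vehicle call was lost without the set 2 or set 4 WT vehicle array or any 1 RARaKO vehicle array. Both calls held without the 2 WT arrays of set 3, at -0.55 and -0.76 (limma, adjusted p = 0.0286 and 0.00626). Hhex lies on chromosome 19, where 2.23% of 940 placed probe sets were lower in vehicle and 3.19% in atRA, beside 1.24% and 1.71% of all 24428 placed. Medians on that chromosome were -0.07 and -0.06, and over all placed probe sets -0.01 in both conditions. Only chromosomes 12, 13 and 19 were counted. Chromosome 13 also had larger lower shares than all placed probe sets, 2.15% in vehicle and 2.34% in atRA. On chromosome 12, which holds Foxa1 and Amn, 1.81% were higher in vehicle and 1.1% in atRA, beside 2.08% and 1.79% of all placed.

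Amn (1417920_at), which anchors cubilin in the membrane of visceral endoderm, was higher in RARaKO cells. It read -0.08, -0.83 and -0.32 in WT vehicle, -0.14, -0.62 and -0.20 in WT atRA, 0.28, 0.22 and 0.43 in RARaKO vehicle, and 0.30, 0.08 and 0.45 in RARaKO atRA. Every RARaKO array lay above every WT array, and set 3 was the lowest of the WT arrays. The difference was 0.72 ± 0.17 in vehicle (1.64-fold, adjusted p = 0.0455 by limma) and 0.60 ± 0.17 in atRA (1.52-fold, adjusted p = 0.0864), the latter not called. Within sets 2, 3 and 4 the vehicle differences were 0.36, 1.04 and 0.75. The atRA differences within the sets were 0.44, 0.71 and 0.65.

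The vehicle call of Amn was lost without the WT arrays of set 3, at 0.51 (limma, adjusted p = 0.0591). Leaving out 1 array ended it in 7 of 12 cases: the WT vehicle arrays of sets 3 and 4, the WT atRA arrays of sets 2 and 4, and any RARaKO vehicle array. Cubn, its partner in the receptor, differed by -0.11 ± 0.25 and -0.05 ± 0.20 in vehicle over its 2 probe sets. In atRA Cubn differed by -0.05 ± 0.25 and 0.02 ± 0.20, so a difference in both subunits was not seen at this precision.

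Foxa1 was higher in RARaKO vehicle by 0.48 ± 0.09 (1.40-fold, adjusted p = 0.0135 by limma), and by 0.68, 0.38 and 0.39 within the sets. In atRA it was higher by 0.30 ± 0.09 (1.23-fold, adjusted p = 0.108), not called, and by 0.30, 0.51 and 0.09 within the sets. The vehicle call held without the WT arrays of set 3 (0.50, adjusted p = 0.0303 by limma) and was lost without the set 2 array of either vehicle group. The Foxa1 difference was thus present without the ligand.

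Fst 1434458_at was lower in RARaKO cells, with a difference of -0.49 ± 0.12 in vehicle (1.40-fold lower, adjusted p = 0.0423 by limma) and of -0.58 ± 0.12 in atRA (adjusted p = 0.0170). In both conditions all 3 RARaKO arrays lay below the 3 WT arrays. Within sets 2, 3 and 4 Fst differed by -0.66, -0.27 and -0.54 without atRA, and by -0.61, -0.22 and -0.91 with it. The vehicle call was lost in 7 of 12 single-array omissions and without the WT arrays of set 3 (-0.51, adjusted p = 0.0986 by limma). The atRA call was lost without the set 2 or set 4 WT atRA array. Probe set 1421365_at gave -0.17 ± 0.10 and -0.24 ± 0.10, not called (limma, adjusted p = 0.467 and 0.207).

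**Figure D3:**
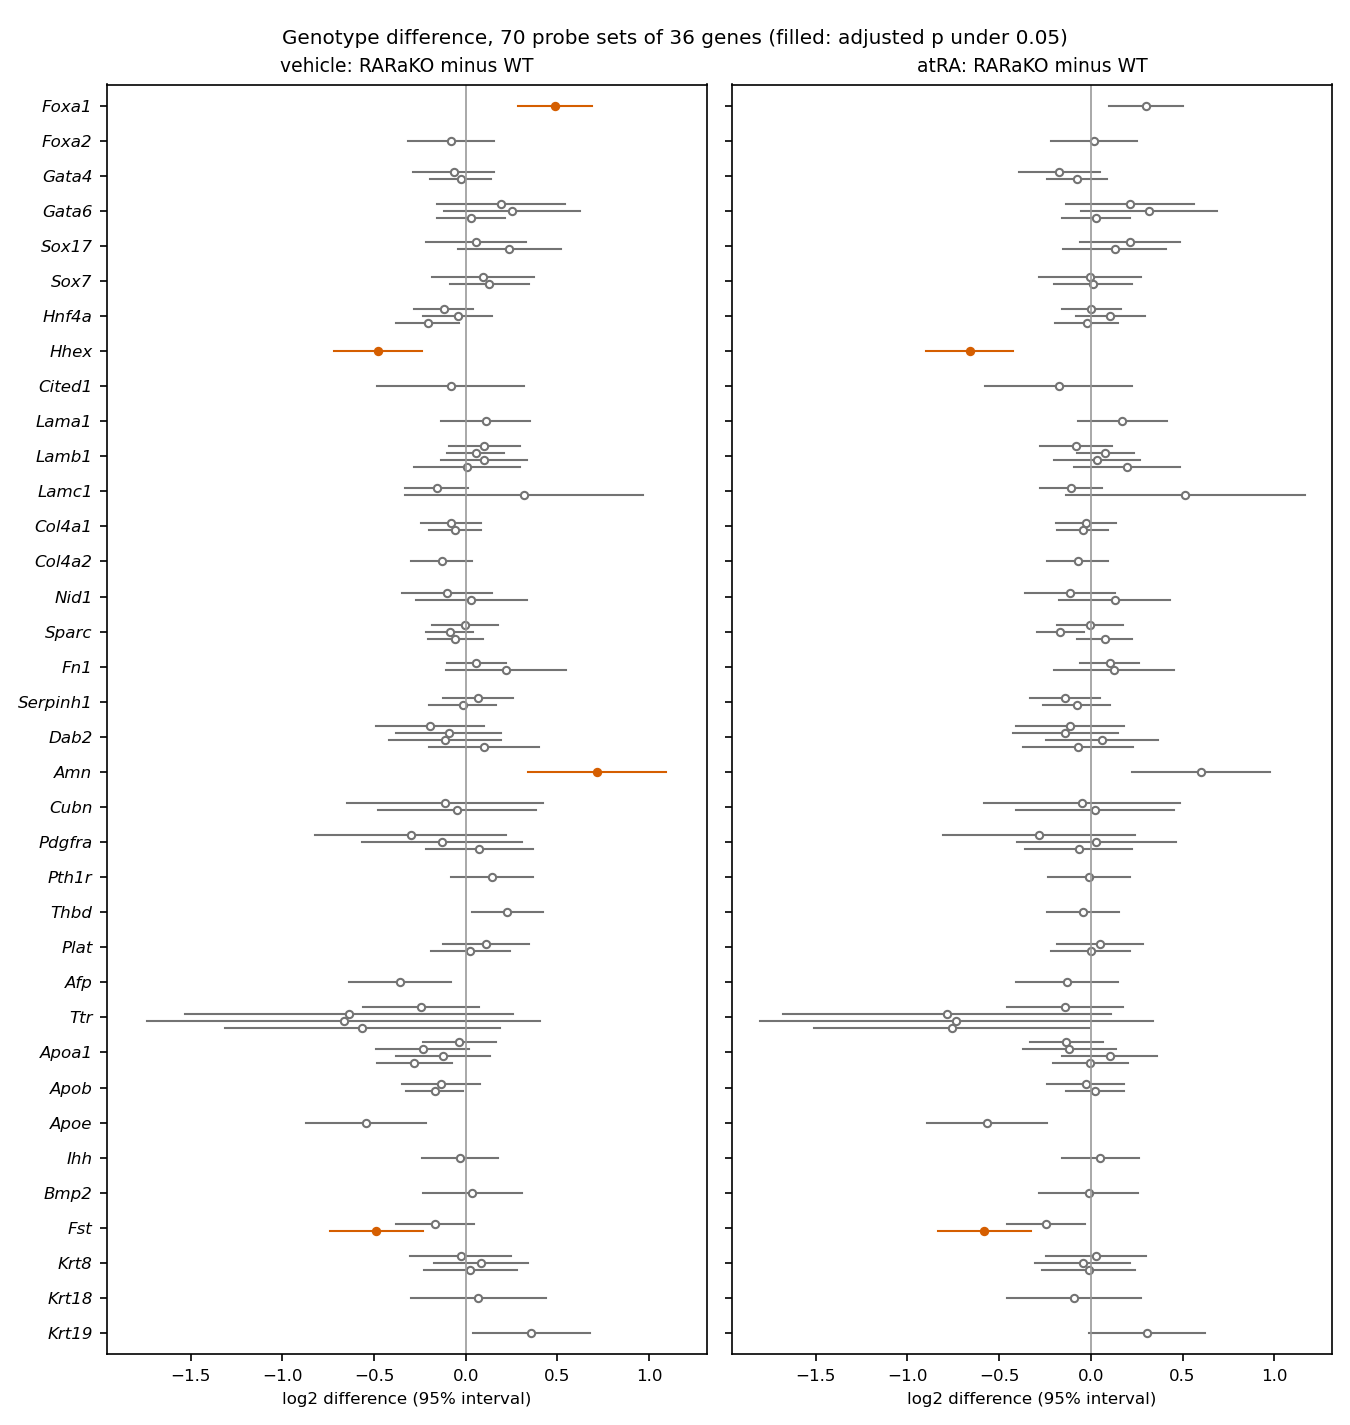
Genotype difference (RARaKO minus WT, log2, x axis) of the 70 probe sets of 36 genes (y axis) in vehicle and in atRA, with 95% intervals of the limma fit. Filled symbols are called probe sets: Foxa1, Hhex, Amn and Fst in vehicle, Hhex and Fst in atRA. The intervals of Ttr are the widest.

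Of the genes without a call, Apoe, a lipid carrier, came nearest. Its values in WT vehicle were 0.51, 0.03 and 0.31 and in RARaKO vehicle -0.26, -0.03 and -0.49, and in atRA 0.33, 0.06 and 0.29 beside -0.12, -0.29 and -0.60. No RARaKO array reached a WT array, though set 3 in vehicle came within 0.06. The difference was -0.54 ± 0.15 in vehicle and -0.56 ± 0.15 in atRA (limma, adjusted p = 0.0809 and 0.0658). With the set number as a block the vehicle value was called (adjusted p = 0.0430).

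Afp, the main fetal serum protein, was at -0.36 ± 0.13 in vehicle (limma, adjusted p = 0.186, and 0.0158 with the block) and at -0.13 ± 0.13 in atRA. Without the 2 WT arrays of set 3 the vehicle value was -0.49 and was called (adjusted p = 0.0338, limma). Afp was itself low in those arrays, so this call partly follows from leaving them out. Apoa1 1455201_x_at was at -0.28 ± 0.09 in vehicle (adjusted p = 0.157, and 0.0290 with the block), and its other 3 probe sets were at -0.03 ± 0.09, -0.23 ± 0.12 and -0.12 ± 0.12. All 12 probe sets of serum proteins lay below 0 in vehicle, with a median of -0.26 beside -0.01 over all probe sets, though 0 were called and 4 had an unadjusted p under 0.05 (limma). Over all probe sets 15.3% had an unadjusted p under 0.05 in vehicle (limma). In atRA 10 of the 12 serum protein probe sets lay below 0, with a median of -0.13. The probe sets of 1 gene share its RNA, and Ttr and Apoa1 account for 8 of the 12. The further list of uptake and serum genes did not lie to 1 side. Of its 15 probe sets 8 lay above 0 in each condition, with medians of 0.00 in vehicle and 0.01 in atRA.

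Sparc 1448392_at was at -0.17 ± 0.06 in atRA and Hnf4a 1427001_s_at at -0.21 ± 0.08 in vehicle, neither called (limma, adjusted p = 0.162 and 0.213). The other probe sets of these genes gave smaller differences or the other sign: Sparc gave -0.01 ± 0.08 and 0.08 ± 0.07, Hnf4a -0.12 ± 0.07 and -0.04 ± 0.09. Over the whole matrix group the genotype differences had a median of 0.01 in vehicle and -0.01 in atRA. Of 19 probe sets 0 were called in either condition (limma), with 0 and 1 at an unadjusted p under 0.05.

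The keratins, with medians of 0.07 and -0.01, likewise had 0 calls in either condition (limma), with 1 and 0 at an unadjusted p under 0.05. The regulators had medians of 0.00 and 0.02, with Hhex and Gata6 at the ends in atRA, at -0.66 and 0.32. Over the 70 probe sets the median was -0.03 in vehicle and -0.01 in atRA. A 95% interval within 0.5 of zero was found for 51 and 55 of them.

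In the further endoderm list Dag1, dystroglycan, a receptor for laminin, was higher in RARaKO cells. Its 3 probe sets differed by 0.39 ± 0.10, 0.34 ± 0.07 and 0.39 ± 0.10 in vehicle, the second called, and by 0.41 ± 0.10, 0.31 ± 0.07 and 0.44 ± 0.10 in atRA, all called (limma, adjusted p from 0.0229 to 0.0623 in vehicle and from 0.0357 to 0.0483 in atRA). No other of the 48 probe sets was called. The list thus had 1 call in vehicle and 3 in atRA, beside 1.84% and 1.61% of all probe sets called higher. All come from 1 gene and are not a result about the list. Tfap2a, on the trophoblast list, was lower in RARaKO cells by both its probe sets, at -0.79 ± 0.10 and -0.99 ± 0.09 in vehicle and -0.81 ± 0.10 and -0.86 ± 0.09 in atRA (limma, all adjusted p at most 6.07e-04). Tfap2a gave 2 of the 15 trophoblast probe sets in each condition, beside 1.16% and 1.51% of all called lower. Of 22 pluripotency probe sets 0 were called in either condition (limma), with 5 at an unadjusted p under 0.05 in each. Of 11 mesoderm and fibroblast probe sets 0 were called (limma), with 0 and 1 at an unadjusted p under 0.05. Over all probe sets 15.3% in vehicle and 17.9% in atRA had an unadjusted p under 0.05 (limma).

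The WT sets differed widely for some of these genes. Ttr, which carries thyroid hormone and retinol-binding protein, gave the widest range of the list. Its probe set 1455913_x_at read 0.94, -0.40 and 1.43 in WT vehicle and 0.99, -0.67 and 1.57 in WT atRA. In RARaKO vehicle it read -0.10, 0.14 and -0.06, and in RARaKO atRA 0.06, -0.24 and -0.14. WT sets 2 and 4 were thus the 4 highest arrays of the 12, and WT set 3 the 2 lowest. The genotype difference was -0.67 ± 0.49 in vehicle and -0.73 ± 0.49 in atRA, neither called (limma, adjusted p = 0.591 and 0.484). With all arrays, Ttr 1451580_a_at differed by only -0.24 in vehicle and -0.14 in atRA, neither called. Without the WT arrays of set 3, 3 Ttr probe sets were called lower in RARaKO in each condition. Those arrays were left out because genes such as Ttr were low in them, so these calls partly follow from the choice.

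Set 3 minus the mean of sets 2 and 4 had a median over the 70 probe sets of -0.18 in WT vehicle and -0.19 in WT atRA, beside -0.01 and 0.01 over all probe sets. For Ttr 1455913_x_at it was -1.58 and -1.95. By role, WT set 3 was lowest in both conditions for 9 of 11 probe sets of receptors and uptake proteins (81.8%), 8 of 12 of serum proteins (66.7%) and 10 of 16 of regulators (62.5%). It was so for 9 of 19 of the matrix group (47.4%) and 0 of 5 keratins. Gata4, Col4a2, Dab2 1423805_at, Cubn and Pdgfra 1421917_at were among them, and Foxa1, Hnf4a and Krt8 were not. With 1 probe set per gene the count was 24 of 36 (66.7%).

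Beside the 15.1% of all probe sets, WT set 3 was lowest in both conditions for 9 of 22 probe sets of pluripotency genes (40.9%), 3 of 15 of trophoblast genes (20%) and 3 of 11 of mesoderm and fibroblast genes (27.3%). Of the further endoderm probe sets it was lowest for 15 of 48 (31.2%): 6 of 11 for regulators and signals (54.5%), 6 of 15 for uptake and serum proteins (40.0%) and 3 of 22 for matrix and collagen processing (13.6%). No difference between these shares was tested. Among RARaKO arrays set 4 was lowest in both conditions for 24 of the 70 (34.3%), beside 16.6% of all, and set 2 was highest for 22 (31.4%), beside 13.5%. WT set 2 was highest in both for 29 (41.4%), beside 17.4%. The set 3 pattern was noticed in these values and is given with no test. What a set stands for, a culture, a day or a processing run, is not given in the labels. The part of fewer endoderm-like cells and of less RNA per cell cannot be told apart in bulk samples. The mean 5′ minus 3′ control difference was also lowest in set 3 in both WT groups. It was -0.123 in WT vehicle, beside -0.0899 and -0.0844 in sets 2 and 4, and -0.0248 in WT atRA, beside 0.0178 and -0.0128. Set 3 was lowest in both RARaKO groups too. The part of RNA quality in the set 3 pattern was not tested.

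**Figure D4:**
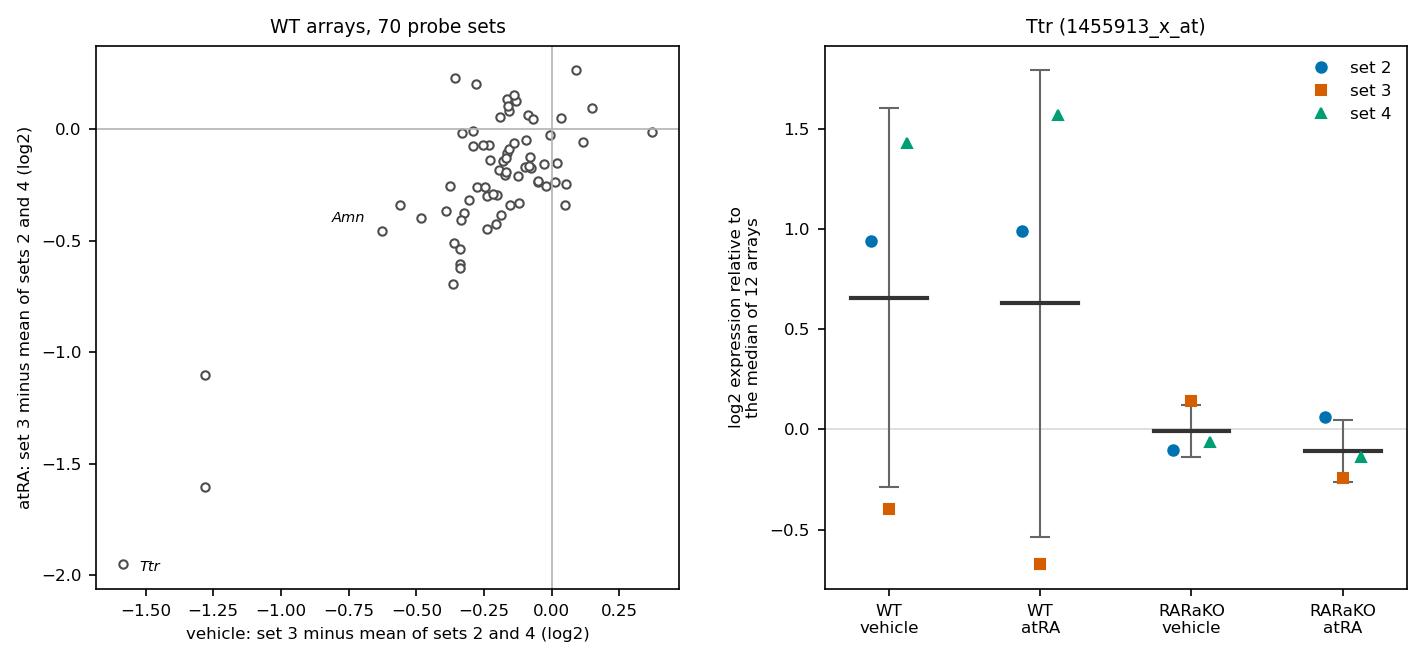
Left, WT set 3 minus the mean of WT sets 2 and 4 (log2) in vehicle (x axis) and in atRA (y axis) for the 70 probe sets. Right, Ttr on each array (log2, relative to the median of 12 arrays), with the mean and SD of 3 arrays. Most points on the left lie below 0 on both axes, and Ttr 1455913_x_at lies farthest out at -1.58 and -1.95.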

How the data were processed

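GCRMA was used to process the arrays, per the submitters' processing notes (version not given in the sources used here). The deposited values were taken as log2, with no log base stated by any label. Tests of the values showed each probe set centred on its median over the 12 arrays, so levels are not in the data. The steps between single-precision values gave a coarse class of the median: at least 8, 4 to 8, or under 4.

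Gene names came from the platform annotation, and 61 control probe sets were left out. limma 3.58.1 in R 4.3.3 (lmFit, eBayes, 8 residual and 4.6 prior degrees of freedom) fitted the 12 arrays together, 1 mean for each group, without a block, and tests were two-sided. The script was tested on simulated data.

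Members and lists were chosen with earlier results of these data known. All members are named, those called with each array's value, and, of those not called, the 5 with the smallest adjusted p with values. Dag1, Tfap2a and Pdgfrb were named because they were called. The genes and probe sets picked out in the accounts of the groups (Ttr, Thbd, Lamc1, Cubn, Gata4, Col4a1 and the ends of ranges among them) were chosen after their values were seen.

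Same-numbered arrays deviated together in some pairs of groups more than in others. Correlations over sets 2, 3 and 4 were 0.392, 0.267 and 0.101 for the WT response. They were 0.210, 0.117 and 0.497 for the RARaKO response and 0.137, 0.116 and 0.238 for the genotypes in vehicle. WT vehicle with RARaKO atRA gave 0.339, 0.328 and 0.174, and WT atRA with RARaKO vehicle 0.221, 0.0246 and 0.0186. For the genotypes in atRA the correlations were 0.287, 0.144 and 0.0375, and the sets were not taken as pairs there. Alternatives were the block, the compared groups alone, array weights, 2 further normalizations, probe set filters, gene means and left-out arrays. The number of arrays limits the precision.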

Additional observations from a re-analysis of the deposited data

How the results depend on the processing

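The alternatives were run on the counts and on probe sets of Foxa1, Hhex, Amn, Fst, Apoe, Apoa1, Sparc, Afp and Hnf4a, in 1 to 4 comparisons each. None of those differences reversed, other genes named in the text were not rerun, and the count for the difference between responses was 0 throughout. The other counts of called endoderm probe sets moved. With the set number as a replicate block, the RARaKO response went from 1 to 2, the genotype difference in vehicle from 4 to 7 and in atRA from 2 to 4, where Amn (adjusted p = 0.00791) and Apoe (0.0328, limma) were added. The sets were not taken as pairs for the genotypes in atRA, so the block calls there are given only as an alternative. The block left the count for the WT response at 2. Fitting the compared groups alone, with fewer arrays, gave 0 for the RARaKO response and 1 for the genotypes in atRA. Averaging the probe sets of a gene gave 2 for the RARaKO response, and keeping only the highest signal class, which leaves out Fst, gave 1 for the WT response.

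Leaving out 1 array gave 1 to 2 for the WT response, 0 to 1 for the RARaKO response, 0 to 4 for the genotypes in vehicle and 1 to 3 in atRA. Leaving out a whole set gave 0 for both responses and the vehicle comparison each time, and 0 to 5 in atRA. Without both WT arrays of set 3, an alternative chosen after seeing the data, the WT response had 1, the genotypes in vehicle 6 and in atRA 5. The cause of these changes was not tested, apart from the smaller number of arrays or probe sets. Genes whose signal is near background cannot be told from the centred values, and the 3 arrays per group leave differences under about 0.5 unresolved for the more variable genes.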
